A study of Mus musculus with 6 samples.

Results

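The data describe 35 genes of glycolysis and of the hypoxia response in single CD11b+ cells from mouse brains. The genes were chosen by symbol from the gene rows of the deposited matrices, and all 35 were found among the 30406 genes listed in every pool. CD11b is an integrin subunit carried by myeloid cells, and the cells came from C57BL/6 mice aged 12 weeks. The 6 groups of the study were females and males without tumor, at day 14 and at day 21 after tumor implantation, with the tumor being a glioma per the title. Whole brains were used for controls and the hemisphere with the tumor for the others. Single samples were marked with hashtag antibodies and joined in 3 pools of 6. Each pool gave an mRNA library and a library of antibody tags (CITE-seq). The labels do not say which hashtag marked which group, so sex, tumor and day were not compared. Each pool and hashtag number is called a hashed sample, and every tested comparison below sets cells of the same hashed sample against each other. Levels given without a test can come from different sets of hashed samples per class, or from cells pooled over samples. The labels do not say how many animals a hashed sample holds, so p-values measure only how far these samples differ, and part of that may be technical.

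Glycolysis splits glucose into pyruvate in the cytosol, and lactate dehydrogenase turns pyruvate into lactate, which leaves the cell through monocarboxylate transporters. When oxygen falls, prolyl hydroxylases of the Egln family stop marking the transcription factor HIF-1α for destruction, and it raises transcription of glucose transporters, glycolytic enzymes and genes such as Vegfa. In macrophages the same genes are also raised by inflammatory stimuli at normal oxygen, and microglia are the resident macrophages of the brain.

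HIF-1 binds the core letters ACGTG or GCGTG, so the 250 bases before the first listed start site of each gene were searched for both on either strand. Other start sites were not searched, and some windows, such as those of Ldha and Slc16a3, lie inside the listed span of the gene. RefSeq windows (GRCm38.p6) existed for 32 of the 35 genes, and Bnip3l, Ndrg1 and Slc2a3 had none. ACGTG was in 16 of the 32 windows (50%), against 16.6% of 27025 windows of all genes. GCGTG was also in 16 (50%), against 28.2% of all genes, and either was in 24 (75%), against 38.6%. The windows of the 35 genes were richer in G and C, with a median of 63.4% against 52.0%, and the part of base composition in these shares was not tested. A match is only a run of letters. The windows of 5 genes with matches are shown as examples and do not stand for all 32. Pfkp and Slc16a3 differed by some of the largest folds between monocyte-like and microglia-like cells, Pgk1 and Ldha are glycolytic enzymes, and Bnip3 and Ldha held 5 matches each. Capitals mark both motifs, and where they overlap, as in the palindrome CACGTG, each strand counts once.
Pfkp, chr13:6648772-6649021, minus strand, 3 GCGTG: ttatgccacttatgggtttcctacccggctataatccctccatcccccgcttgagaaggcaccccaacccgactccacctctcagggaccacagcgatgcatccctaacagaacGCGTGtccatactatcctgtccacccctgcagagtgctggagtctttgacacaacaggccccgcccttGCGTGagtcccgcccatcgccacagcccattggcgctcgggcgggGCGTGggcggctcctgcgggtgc
Slc16a3, chr11:120948817-120949066, plus strand, 2 ACGTG: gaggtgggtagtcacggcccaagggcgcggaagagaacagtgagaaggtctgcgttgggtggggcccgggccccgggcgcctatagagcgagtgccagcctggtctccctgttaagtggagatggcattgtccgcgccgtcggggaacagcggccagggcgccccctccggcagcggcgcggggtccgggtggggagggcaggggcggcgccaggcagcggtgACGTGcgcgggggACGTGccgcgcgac
Pgk1, chrX:106186850-106187099, plus strand, 2 ACGTG: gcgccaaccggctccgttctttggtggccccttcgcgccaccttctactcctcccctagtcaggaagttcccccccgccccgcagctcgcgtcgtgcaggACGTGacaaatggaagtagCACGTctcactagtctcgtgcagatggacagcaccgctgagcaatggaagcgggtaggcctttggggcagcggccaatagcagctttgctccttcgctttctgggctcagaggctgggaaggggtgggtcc
Ldha, chr7:46845554-46845803, plus strand, 5 ACGTG: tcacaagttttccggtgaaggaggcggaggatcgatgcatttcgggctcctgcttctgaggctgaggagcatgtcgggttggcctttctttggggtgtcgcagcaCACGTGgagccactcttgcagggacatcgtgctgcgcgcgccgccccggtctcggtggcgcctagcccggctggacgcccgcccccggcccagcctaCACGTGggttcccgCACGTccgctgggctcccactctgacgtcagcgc
Bnip3, chr7:138909507-138909756, minus strand, 2 ACGTG and 3 GCGTG: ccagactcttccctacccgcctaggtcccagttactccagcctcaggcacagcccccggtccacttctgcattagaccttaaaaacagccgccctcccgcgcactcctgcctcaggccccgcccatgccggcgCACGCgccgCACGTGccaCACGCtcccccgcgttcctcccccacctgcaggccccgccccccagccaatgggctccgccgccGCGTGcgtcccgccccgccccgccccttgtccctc
Neither motif was in the window of Vegfa, which says only that these letters are not in those 250 bases.

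The mRNA libraries held 74848339 UMIs (distinct molecules) in pool 1, 107880924 in pool 2 and 71510276 in pool 3. In pool 3 a single hashtag made up at least 80% of the hashtag counts in only 16.1% of kept barcodes (pool 1: 79.2%, pool 2: 87.5%), so pool 3 gave 1888 of the 22145 cells used. Pools shared 19, 5 and 12 cell barcodes. Cells were clustered without the 35 genes and without the other genes of both pathways, and clusters were named from marker lists. Microglia-like cells (Tmem119, P2ry12) numbered 7843 and monocyte-like cells (Ly6c2, Plac8) 1840. The monocyte-like cluster was also led by interferon-induced genes such as Rsad2 and Ifit1. Macrophage-like cells fell into a Nos2 and Inhba class of 2366 cells, a Gpnmb class of 1149 and another class of 2537. Nos2 separated the Nos2 and Inhba class from the Gpnmb class, at 0.808 against 0.072 UMIs per 10000, whereas Inhba hardly did, at 1.87 against 1.65. Dendritic-like cells numbered 876, and 4204 cells stayed unnamed. Monocyte-like and macrophage-like cells were almost absent under hashtags 1 and 2 of every pool, so comparisons with them rest on hashtags 3 to 6. A class entered a comparison where a hashed sample held at least 20 of its cells. The classes are clusters formed from the same cells that are compared, so p-values between classes do not allow for the clustering. Leaving out the genes of both pathways does not remove their correlation with the genes used to cluster.

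Among the 6 classes compared, microglia-like cells carried the least RNA of the 35 genes and Nos2 and Inhba macrophage-like cells the most. Levels are UMIs per 10000 RNA UMIs of the class in a hashed sample, and since UMIs were counted at the 3′ ends of transcripts they do not scale with transcript length. In microglia-like cells the summed level of the 35 genes was 32.6 at the lowest, 35.7 at the median and 41.1 at the highest of 17 hashed samples. Monocyte-like cells held 62.1, 105 and 148 (n = 11). Nos2 and Inhba macrophage-like cells held 87.8, 132 and 185 (n = 10). All monocyte-like and macrophage-like samples lay above all microglia-like samples. Gpnmb macrophage-like cells held 72.9, 111 and 123 (n = 10), and the other macrophage-like cells 65.1, 88.3 and 128 (n = 10). Dendritic-like cells lay between, at 36.1, 63.2 and 89.7 (n = 10), and their lowest sample was inside the microglia-like range. The monocyte-like and the 3 macrophage-like ranges overlapped. Hashed sample 3 of pool 1 was the highest for Nos2 and Inhba macrophage-like, monocyte-like and other macrophage-like cells. It was not the highest for dendritic-like cells (86.2) or microglia-like cells (36.7). Gapdh made up 21.4% of the sum in microglia-like and 21.9% in monocyte-like cells at the median. Without Gapdh and Mif the class medians were 26.6 for microglia-like, 77.0 for monocyte-like and 89.6 for Nos2 and Inhba macrophage-like cells. These 3 kept their order, but the median of Gpnmb macrophage-like cells moved from above to below that of monocyte-like cells. Of the smaller classes, 135 border macrophage-like cells were lower still when pooled over samples, at 25.6 against 36.1 in microglia-like cells pooled the same way.

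**Figure D1:**
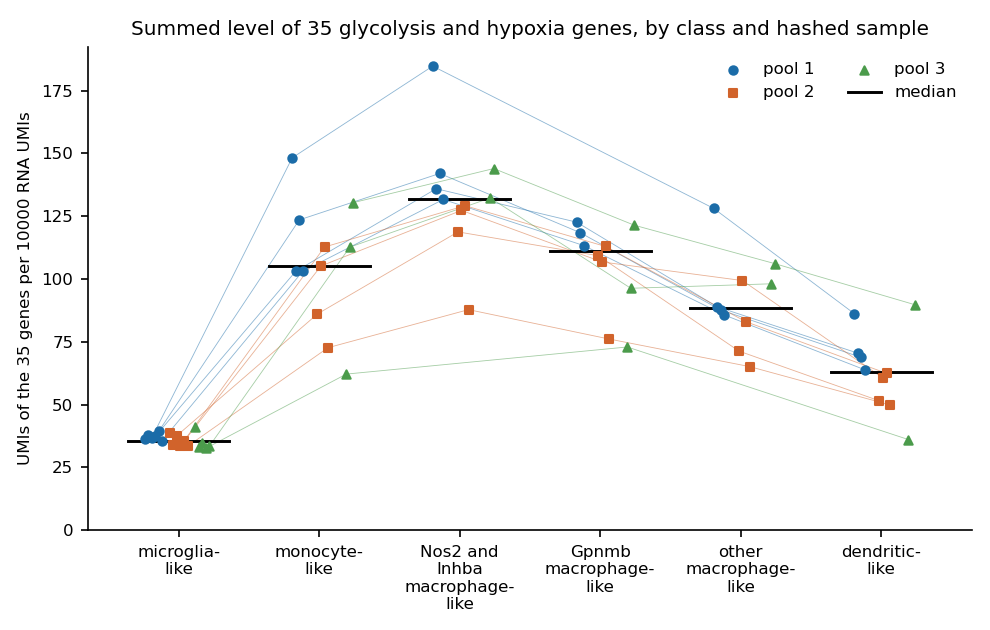
Summed level of the 35 genes (vertical axis, UMIs per 10000 RNA UMIs) in 6 cell classes; each point is a hashed sample with at least 20 cells of the class, colored by pool, thin lines join the classes of a hashed sample and black bars are medians. The 17 microglia-like points lie between 32.6 and 41.1, below every monocyte-like and macrophage-like point.

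The genes did not share a single order of classes. By median level, 18 of the 35 were highest in Nos2 and Inhba macrophage-like cells, 8 in microglia-like, 5 in monocyte-like, 2 in dendritic-like cells, 1 in Gpnmb and 1 in the other macrophage-like cells. These counts rank medians and are not a test, and Pfkfb3 and Bnip3l did not pass in the test against monocyte-like cells below. The 18 included Slc2a1, the main glucose importer of many cells, and the enzymes Aldoa, Tpi1, Gapdh, Pgk1, Eno1 and Ldha. Those highest in microglia-like cells included Hk2, which phosphorylates glucose at the mitochondrial surface, Pfkfb3, which makes the activator of phosphofructokinase, Pdk1, which blocks entry of pyruvate into the mitochondrion, and Bnip3l, a receptor for the removal of mitochondria. Monocyte-like cells were highest in Hk1, Hk3, Pkm, Hif1a and Ankrd37. Hilpda, a lipid droplet protein, was highest in Gpnmb macrophage-like cells. Gapdh, Mif, Ldha and Eno1 have near-identical processed pseudogenes, so their counts are uncertain where reads could be split among copies. Slc2a3 and Adm, which are among the 8 highest in microglia-like cells, were close to absent in these 6 classes. Neither had a class median above 0.0213 per 10000 or passed the filter on low counts in any test.

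**Figure D2:**
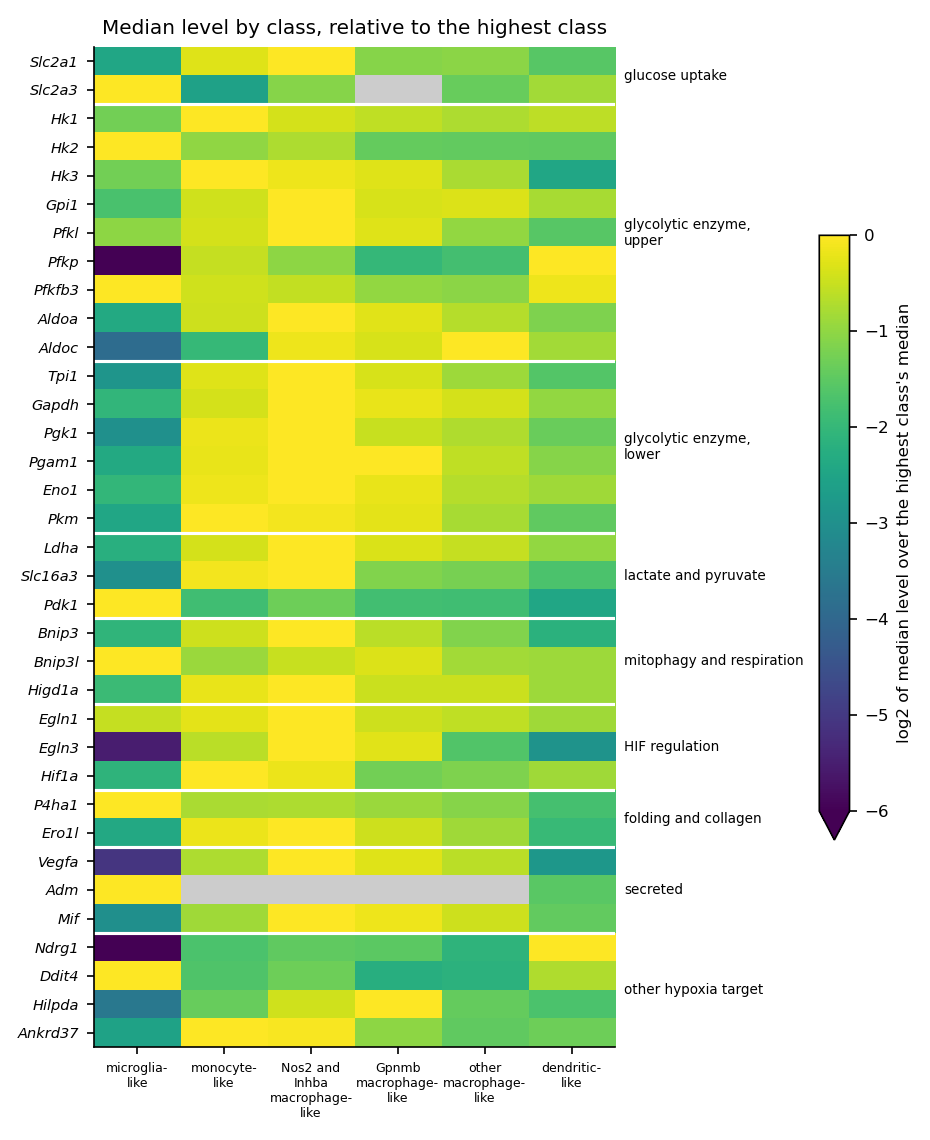
Median level of each gene over hashed samples in 6 classes, as log2 of the ratio to the class with the highest median (color; 0 marks the highest class, gray a median of 0), with genes in rows grouped by role. The microglia-like column is darkest for most enzymes and at 0 for Hk2, Pfkfb3, Pdk1, Bnip3l and P4ha1.

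Against microglia-like cells of the same 10 hashed samples, monocyte-like cells had more RNA for most of the 35 genes. Of the 35 genes 24 were higher and 3 lower, 3 passed the test in neither direction (Ddit4, Bnip3l, Pfkfb3) and 5 were not tested for low counts (Slc2a3, Adm, Aldoc, Egln3, Ndrg1). Of all 7750 genes tested 78.3% passed, 37.1% as higher and 41.2% as lower (edgeR quasi-likelihood test with TMM scaling, Benjamini-Hochberg adjusted p under 0.05). The median log2 fold change was 2.4 over the 30 tested and −0.08 over all genes tested. By role, 6 of 6 enzymes of the lower stage, from Tpi1 to Pkm, were higher, and of 9 genes of the upper stage 6 were higher, 1 was lower and Aldoc was not tested. The lactate enzyme Ldha was 5.18-fold higher and the lactate exporter Slc16a3 9.87-fold.

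Pfkp, the platelet-type phosphofructokinase, showed the largest difference. Its level was 1.21 at the lowest, 1.54 at the median and 3.43 at the highest in monocyte-like cells, and 0.0146, 0.0352 and 0.0715 in microglia-like cells. These ranges did not overlap, from 2418 against 44 UMIs in all, and the log2 fold change was 6.36 ± 0.15 (SE, n = 10, edgeR adjusted p = 2.8e-19). Vegfa, the growth factor of blood vessels, followed at 0.84, 1.32 and 2.4 against 0.0293, 0.0608 and 0.143. Again no sample overlapped, and the log2 fold change was 5.05 ± 0.15 (edgeR adjusted p = 8.1e-18). Slc16a3 was at 0.684, 2.34 and 4.07 against 0.143, 0.317 and 0.421, without overlap, with a log2 fold change of 3.30 ± 0.14 (edgeR adjusted p = 3.3e-15). As a measure of free RNA, the monocyte transcript Ly6c2 was at 34.5 per 10000 in all monocyte-like and 0.120 in all microglia-like cells, while Pfkp was at 1.81 and 0.0219 and Vegfa at 1.58 and 0.0879. The microglia-like values here pool all samples, including hashtags 1 and 2, where monocyte-like cells were almost absent. They can thus lie below the levels in the 10 samples compared, as for Pfkp (0.0219 against a median of 0.0352). The part of free RNA in the low microglial values was not tested. Hif1a itself, the oxygen-regulated subunit, was 5.92-fold higher, and its hydroxylase Egln1 1.66-fold.

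The 3 lower genes were Pdk1, the hexokinase Hk2 and P4ha1. Pdk1 was at 0.0932, 0.167 and 0.307 in monocyte-like and 0.503, 0.63 and 0.752 in microglia-like cells, without overlap. Its log2 fold change was −1.36 ± 0.14 (edgeR adjusted p = 1.8e-08). Hk2 was at 1.24, 2.29 and 4.07 against 3.19, 4.40 and 4.91, with overlapping ranges but lower in all 10 samples (log2 −0.38 ± 0.11, edgeR adjusted p = 0.0024). P4ha1, a collagen prolyl hydroxylase subunit, was at 0.701, 0.964 and 1.31 against 1.07, 1.60 and 1.93 (log2 −0.23 ± 0.10, edgeR adjusted p = 0.041). The calls of Hk2 and P4ha1 were each lost when 1 pool was left out: without pool 2 Hk2 was at −0.28 (adjusted p = 0.092), and without pool 1 P4ha1 was at −0.07 (adjusted p = 0.65). Egln1 also lost its call without pool 1 (log2 0.55, adjusted p = 0.053). Scaling by library size alone moved the median of all genes to −0.60 and the split over all genes from 2876 higher and 3196 lower to 1844 and 4725. On that scale 23 of the genes were higher and 6 lower, and the call of Egln1 was lost (log2 0.21). The dissociation-induced genes, a list of early response and heat shock genes, were at 86.2 to 139 per 10000 in monocyte-like and 133 to 323 in microglia-like cells, and their part in these differences was not tested.

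**Figure D3:**
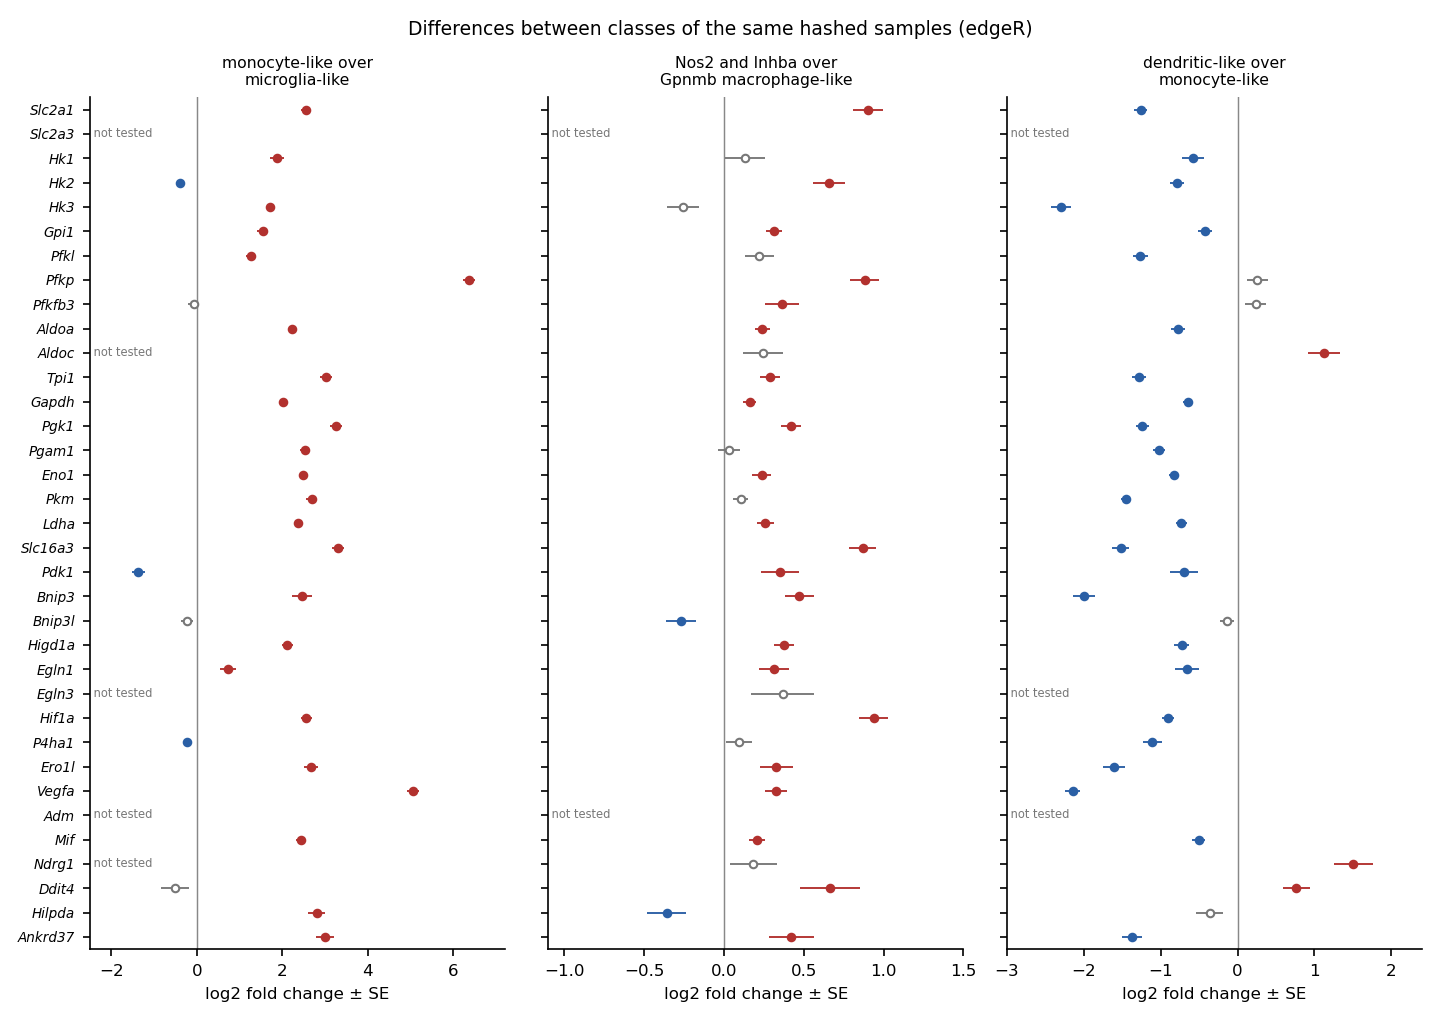
Log2 fold change with SE of each gene (rows) in 3 comparisons of classes within hashed samples; filled red points were higher and filled blue points lower at an adjusted p under 0.05, open gray points passed in neither direction. Most points lie right of 0 for monocyte-like over microglia-like cells (up to 6.36 for Pfkp) and left of 0 for dendritic-like over monocyte-like cells; the horizontal scales differ between panels.

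Within the infiltrating cells the difference between Nos2 and Inhba macrophage-like and monocyte-like cells was mixed, and for many genes small. Of the 35 genes 10 were higher and 6 lower in 10 hashed samples, 17 passed in neither direction and 2 were not tested. Over all 7429 genes 51.1% passed, with 24.9% higher and 26.1% lower, so the members' shares of 30.3% and 18.2% of those tested were near the background. Aldoc, the brain-type aldolase, was at 0.10, 0.291 and 0.452 against 0.0526, 0.0824 and 0.123, with overlapping ranges but higher in 10 of 10 samples (log2 1.77 ± 0.15, edgeR adjusted p = 1.2e-09). Mif, a secreted inhibitor of macrophage migration, was at 7.66, 11.4 and 16 against 4.30, 6.39 and 7.2, without overlap (log2 0.84 ± 0.06, edgeR adjusted p = 1.1e-11). Egln3, a hydroxylase that HIF itself induces, was at 0.0669, 0.17 and 0.342 against 0.026, 0.113 and 0.224 (log2 0.72 ± 0.20, edgeR adjusted p = 0.0040). Its ranges overlapped and without pool 2 its call was lost (adjusted p = 0.089).

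Of the 9 genes of the upper stage 3 were higher (Aldoa, Aldoc and Gpi1) and 4 lower (Pfkp, Hk3, Hk1 and Pfkfb3), while Hk2 (log2 0.04 ± 0.07) and Pfkl (0.05 ± 0.08) did not pass. Pfkp was at 0.909, 1.13 and 1.59 in Nos2 and Inhba macrophage-like cells against 1.23, 1.67 and 3.43 in monocyte-like cells and lower in all 10 samples (log2 −0.84 ± 0.10, edgeR adjusted p = 2.7e-07). The myeloid hexokinase Hk3 was at 0.45, 1.01 and 1.96 against 0.675, 1.15 and 2.10, lower in all 10 (log2 −0.49 ± 0.09, edgeR adjusted p = 0.00014). Hk1 was at 0.191, 0.243 and 0.392 against 0.178, 0.318 and 0.478, lower in 8 of 10 (log2 −0.47 ± 0.10, edgeR adjusted p = 0.00050). All of these ranges overlapped, and with cells thinned to 2000 UMIs the call of Hk1 was lost (log2 −0.18). Vegfa was 1.52-fold and Hilpda 1.63-fold higher, both in 10 of 10 samples, while Slc2a1 (log2 0.04 ± 0.06) and Slc16a3 (−0.10 ± 0.06) did not pass. Library-size scaling moved the split over all genes from 1853 higher and 1941 lower to 2701 and 1390, and that of the 35 genes to 18 higher and 3 lower. Among 13 dissociation-induced genes 11 were lower and 2 higher, and monocyte markers summed to 36.6 to 79.6 against 111 to 160.

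Gpnmb macrophage-like cells differed from the same monocyte-like cells more often downward. Higher were 7 and lower 14 of the 35 genes in 10 hashed samples, against 29.9% and 28.4% of 6837 genes tested (58.4% in all). Pfkp was at 0.282, 0.573 and 0.769 against 1.21, 1.54 and 2.93, without overlap (log2 −1.58 ± 0.11, edgeR adjusted p = 4e-10). Hif1a was at 1.08, 1.62 and 2.65 against 2.59, 3.48 and 4.98, lower in 10 of 10 samples with a small overlap of the ranges (log2 −1.13 ± 0.12, edgeR adjusted p = 7e-08). Slc16a3 was at 0.624, 1.17 and 2.22 against 0.684, 2.34 and 3.15 (log2 −0.83 ± 0.12, edgeR adjusted p = 5e-06), lower in 9 of 10. Slc2a1, Hk1 and Hk2 were lower too, so uptake, phosphorylation and lactate export each had a lower member.

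The 7 higher genes included the lipid droplet gene Hilpda. Both macrophage-like classes were compared with monocyte-like cells of largely shared samples, so these comparisons are not independent. Hilpda was at 0.588, 1.39 and 2.26 against 0.221, 0.51 and 0.921, higher in 10 of 10 samples with overlapping ranges (log2 1.2 ± 0.11, edgeR adjusted p = 1.1e-08). Aldoc was at 0.0314, 0.254 and 0.394 against 0, 0.0824 and 0.123 (log2 1.42 ± 0.18, edgeR adjusted p = 9.3e-07). Egln3 was at 0.0239, 0.14 and 0.272 against 0.026, 0.0821 and 0.219 (log2 0.67 ± 0.23, edgeR adjusted p = 0.017), higher in 8 of 10. Mif (1.56-fold), Bnip3l (1.37-fold), Vegfa and Gapdh completed the 7. Gapdh lost its call when any 1 pool was left out, and Vegfa without pool 1 or pool 3. Without pool 2, 4 genes were higher and 7 lower of 28 tested, and Hk1 lost its call (log2 −0.50, adjusted p = 0.052). Library-size scaling moved the split over all genes from 2047 higher and 1945 lower to 2611 and 1568 and that of the 35 genes to 8 and 9. Among 13 dissociation-induced genes 8 were lower and 1 higher.

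Set directly against each other in 9 hashed samples, Nos2 and Inhba macrophage-like cells had more RNA for most of the 35 genes than Gpnmb macrophage-like cells. Of the 35 genes 22 were higher and 2 lower, while 16.2% of all 7670 genes tested were higher and 13.7% lower (29.9% in all). The median log2 fold change was 0.31 over the 33 tested and −0.005 over all genes. Hif1a was at 2.44, 3.17 and 5.01 against 1.08, 1.61 and 2.65, higher in 9 of 9 samples (log2 0.94 ± 0.09, edgeR adjusted p = 5.6e-08). Slc2a1 was at 1.17, 1.74 and 1.90 against 0.465, 0.855 and 1.41, higher in 9 of 9 (log2 0.90 ± 0.09, edgeR adjusted p = 1.3e-07). Pfkp was at 0.909, 1.06 and 1.33 against 0.442, 0.606 and 0.769 (log2 0.88 ± 0.09, edgeR adjusted p = 1.1e-07). The ranges of Pfkp did not overlap and those of Hif1a and Slc2a1 did.

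The same direction ran through most roles, at smaller sizes. In the lower stage 4 of 6 enzymes were higher, by at most 1.34-fold (Pgk1), and Pgam1 (log2 0.03 ± 0.07) and Pkm (0.10 ± 0.05) did not pass. All 3 genes of lactate and pyruvate handling were higher, with Slc16a3 1.83-fold and Ldha 1.2-fold. Both secreted genes tested, Vegfa (1.25-fold) and Mif (1.15-fold), were higher. Hilpda was the largest exception, at 0.502, 1.0 and 1.80 against 0.588, 1.4 and 2.26 and lower in 6 of 9 samples (log2 −0.36 ± 0.12, edgeR adjusted p = 0.028). Bnip3l was at 0.818, 1.13 and 1.41 against 0.893, 1.32 and 1.83, lower in 7 of 9 (log2 −0.27 ± 0.09, edgeR adjusted p = 0.033). The call of Hilpda was lost without pool 1 or pool 3 (adjusted p = 0.085 in both) and that of Bnip3l without pool 1 (0.31) or pool 2 (0.11). Vegfa lost its call without pool 2 (log2 0.22, adjusted p = 0.15). Monocyte markers summed to 36.6 to 79.6 per 10000 in the Nos2 and Inhba class and 8.92 to 72.4 in the Gpnmb class, and their part in the result was not tested. With cells thinned to 2000 UMIs each, 9 of the genes were higher and none lower of 27 tested. When the genes of both pathways were left in the clustering, neither of these 2 classes was named, and the monocyte-like class held 3800 cells against 1840.

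**Figure D4:**
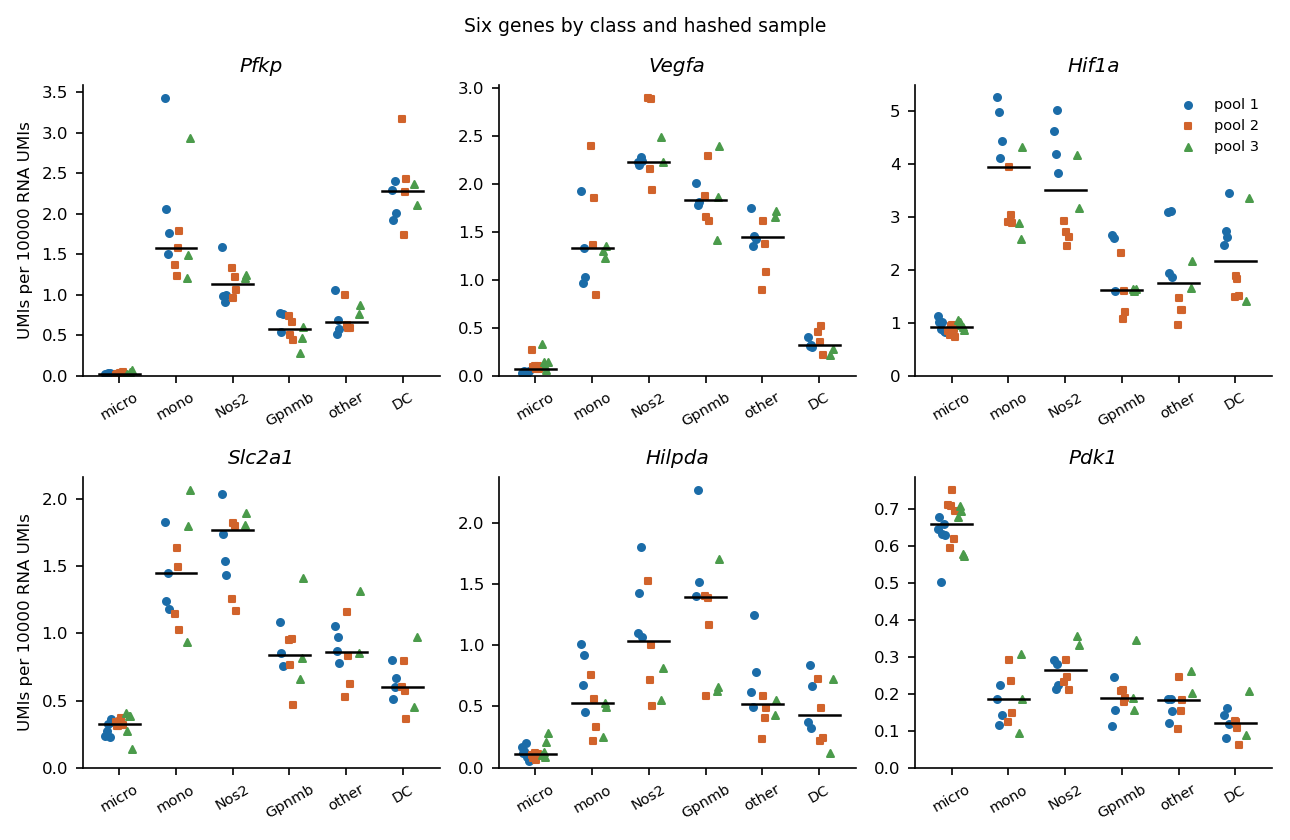
Level (UMIs per 10000 RNA UMIs) of Pfkp, Vegfa, Hif1a, Slc2a1, Hilpda and Pdk1 in microglia-like (micro), monocyte-like (mono), Nos2 and Inhba (Nos2), Gpnmb (Gpnmb) and other macrophage-like (other) and dendritic-like (DC) cells; each point is a hashed sample colored by pool and bars are medians. Pfkp and Vegfa are near 0 in microglia-like cells, Hilpda is highest in the Gpnmb class and Pdk1 in microglia-like cells, at 0.503 to 0.752.

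Dendritic-like cells had less RNA for most of the 35 genes than monocyte-like cells. In 10 hashed samples 25 of the 35 genes were lower and 3 higher, 4 passed in neither direction and 3 were not tested, against 28.8% lower and 27.4% higher of all 6677 genes (56.2% in all). All 6 enzymes of the lower stage and all 3 genes of lactate and pyruvate handling were lower. Hk3 was at 0.149, 0.205 and 0.90 against 0.675, 1.11 and 2.10 (log2 −2.29 ± 0.13, edgeR adjusted p = 7.2e-12), lower in 10 of 10. Vegfa was at 0.21, 0.316 and 0.514 against 0.84, 1.35 and 2.4 (log2 −2.15 ± 0.10, edgeR adjusted p = 4.3e-13). Bnip3, a mitophagy receptor, was at 0.0899, 0.229 and 0.762 against 0.342, 0.846 and 1.7 (log2 −2.0 ± 0.15, edgeR adjusted p = 3.4e-10). The ranges of Vegfa did not overlap and the others did. Pfkp did not pass (log2 0.26 ± 0.14, edgeR adjusted p = 0.13), and its median of 2.28 was the highest of the 6 classes. Among 9 microglia markers tested 8 were higher in dendritic-like cells and 0 lower, and the list summed to 7.78, 15.4 and 32.9 per 10000 against 3.24, 4.5 and 7.59 (lowest, median and highest). The part of these transcripts in the result was not tested.

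Of the 3 higher genes, Ndrg1, a stress-induced gene, was at 0.355, 0.608 and 1.51 against 0, 0.19 and 0.648 (log2 1.51 ± 0.25, edgeR adjusted p = 3.8e-05), higher in 9 of 10. Aldoc was at 0, 0.183 and 0.337 against 0, 0.0807 and 0.123 (log2 1.13 ± 0.20, edgeR adjusted p = 0.00010). Ddit4, an inhibitor of mTORC1, was at 0.115, 0.398 and 0.579 against 0.0311, 0.206 and 0.28 (log2 0.77 ± 0.17, edgeR adjusted p = 0.00089), higher in 8 of 10. All 3 ranges overlapped. With the genes of both pathways left in the clustering the call of Aldoc was lost (log2 0.07, adjusted p = 0.81). The class joins a cluster of 601 cells led by Ccl17 and Mgl2 and a cluster of 275 led by Ccr7, the chemokine receptor of migratory dendritic cells. Pooled over samples, Ndrg1 was at 2.58 in the Ccr7 cluster and 0.357 in the other, Pfkfb3 at 2.11 and 0.283, Pfkp at 0.712 and 2.80 and Slc2a1 at 0.110 and 0.755. The summed level was 23.1 to 48.5 in 7 samples of the Ccr7 cluster and 38.4 to 102 in 10 samples of the other, and this was not tested. The dissociation-induced list had 8 lower and 1 higher among its 13 genes. Library-size scaling moved the split over all genes from 1830 higher and 1921 lower to 2316 and 1603 and that of the 35 genes to 5 and 25.

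The surface protein tags divided cells of classes that were themselves named from RNA. The Ly-6C gates were drawn over the monocyte-like and all macrophage-like classes joined, and the TMEM119 gates within microglia-like cells. Ly-6C marks inflammatory monocytes and is lost as they become macrophages. Each tag was taken on a log scale relative to the mean of the 10 tags that the pools share (centered log ratio). A low value can thus also come from more of the other tags. Monocyte-like and macrophage-like cells in the highest and lowest 25% of the Ly-6C tag were compared in 11 hashed samples. Of the 35 genes 24 were higher and 1 lower in the high gate, 8 passed in neither direction and 2 were not tested, against 25% higher and 25.3% lower of all 7648 genes (50.3% in all). The median log2 fold change was 0.48 over the 33 tested and −0.02 over all genes. Ankrd37, a HIF target of unclear function, was at 0.0969, 0.445 and 0.896 in the high and 0.0954, 0.20 and 0.674 in the low gate (log2 1.0 ± 0.19, edgeR adjusted p = 0.00021), higher in 9 of 11. Pfkp was at 0.894, 1.5 and 3.37 against 0.54, 0.749 and 1.39 (log2 1.0 ± 0.12, edgeR adjusted p = 9.7e-07). Slc16a3 was at 0.872, 2.62 and 3.6 against 0.487, 1.17 and 3.22 (log2 0.95 ± 0.10, edgeR adjusted p = 4.5e-07). Both were higher in 11 of 11 samples, with overlapping ranges.

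All 3 genes of HIF regulation, Hif1a (1.78-fold), Egln1 and Egln3, were higher with the tag, and so were Slc2a1 (1.48-fold) and 5 of 6 enzymes of the lower stage. With cells thinned to 2000 UMIs the log2 fold change of Egln1 turned to −0.021 and that of Bnip3l, also called higher, to −0.060. Gapdh (log2 0.06 ± 0.06), Vegfa (−0.01 ± 0.09) and Mif (−0.16 ± 0.11) did not pass. Aldoc was at 0, 0.119 and 0.267 against 0, 0.326 and 0.485 (log2 −1.08 ± 0.22, edgeR adjusted p = 0.00044), and lower in all 10 samples that differed. The high gate was 57.7% monocyte-like cells at the median and the low gate 3.125%, with 67.6% of the low gate in the other macrophage-like class. Gates drawn within macrophage-like cells, an alternative added after seeing the data, gave 28 higher and 1 lower of 33. The share over all genes in that fit is not given here. These cells still joined 3 classes, with pooled Ly6c2 at 19.4 (Nos2 and Inhba), 16.8 (Gpnmb) and 3.36 (other) per 10000. The part of class make-up in that alternative was not tested. The 13 dissociation-induced genes (10 higher, 2 lower) summed to 85.6 to 138 against 62.7 to 92.5 per 10000, and their part in the result was not tested. Egln3 lost its call without pool 2 (log2 0.26, adjusted p = 0.47), as did Egln1, Higd1a, P4ha1, Hk3, Ldha and Bnip3l, and Ldha and Bnip3l also without pool 1. Library-size scaling moved the split over all genes from 1911 higher and 1937 lower to 1597 and 2353 and left 20 of the 35 higher and 1 lower.

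**Figure D5:**
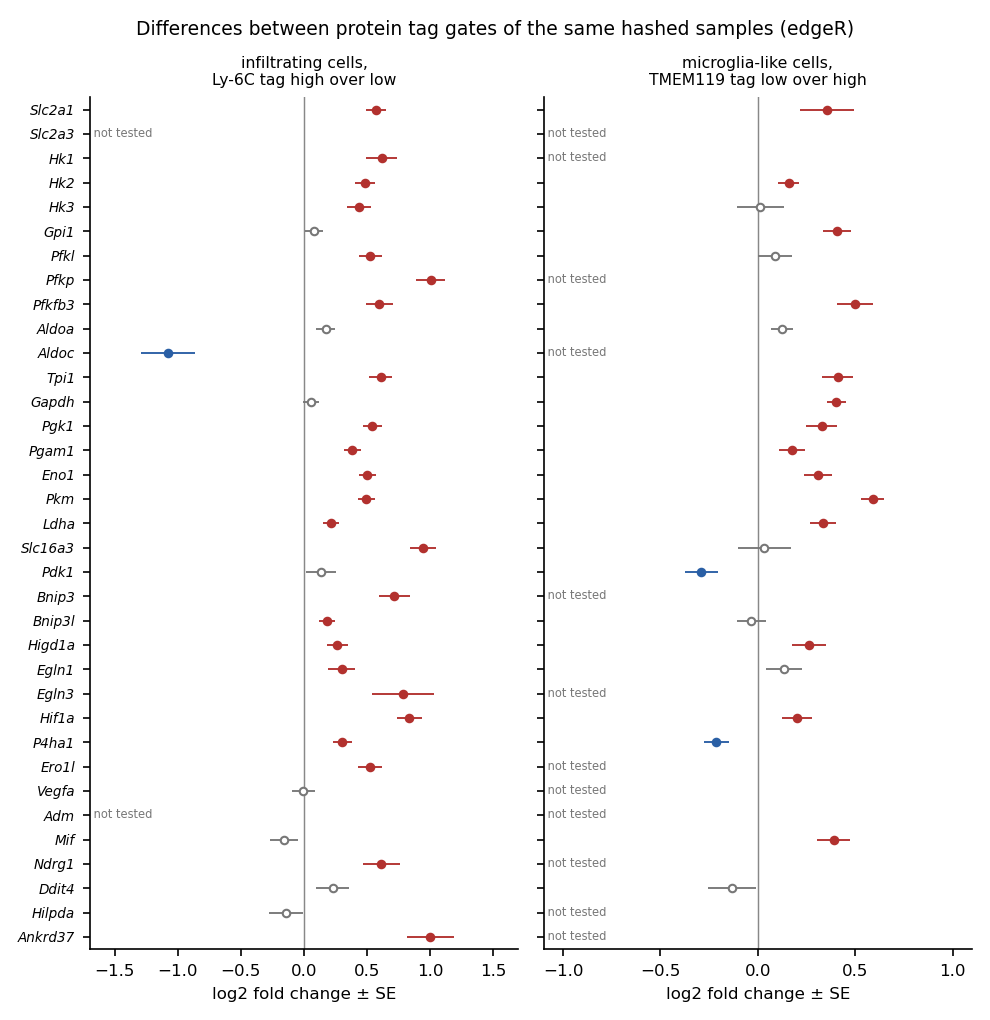
Log2 fold change with SE of each gene (rows) between gates of a protein tag within hashed samples, for Ly-6C high over low in infiltrating cells (11 samples) and TMEM119 low over high in microglia-like cells (16 samples); filled red points were higher and filled blue lower at an adjusted p under 0.05. Slc16a3, Pfkp and Ankrd37 lie near 1 on the left and Pkm furthest right, at 0.59, on the right panel, and the scales differ.

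Within microglia-like cells, those low in the TMEM119 tag relative to the other tags had slightly more RNA for several glycolysis genes. TMEM119 is a membrane protein of resident microglia. Of the 35 genes 14 were higher and 2 lower in the low gate of 16 hashed samples, 7 passed in neither direction and 12 were not tested, against 14.8% higher and 13% lower of all 4863 genes (27.9% in all). All 6 enzymes of the lower stage were higher. Pkm, the pyruvate kinase of myeloid cells, was at 1.96, 2.65 and 3.28 against 1.45, 1.86 and 2.34 and higher in 16 of 16 samples (log2 0.59 ± 0.06, edgeR adjusted p = 1.7e-10). Pfkfb3 was at 0.466, 0.876 and 1.16 against 0.142, 0.618 and 0.964, higher in 15 of 16 (log2 0.50 ± 0.09, edgeR adjusted p = 4.4e-05). Tpi1 was at 0.899, 1.2 and 2.19 against 0.566, 0.92 and 1.43, higher in 14 of 16 (log2 0.41 ± 0.08, edgeR adjusted p = 9.1e-05). Gpi1 had the same log2 fold change at these decimals (0.41 ± 0.07) and Gapdh 0.40 ± 0.05 in 16 of 16. The ranges of both gates overlapped for each.

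Pdk1 was at 0.381, 0.604 and 0.822 against 0.555, 0.75 and 0.871, lower in 13 of 16 (log2 −0.29 ± 0.09, edgeR adjusted p = 0.0089). P4ha1 was at 1.11, 1.57 and 1.97 against 0.95, 1.87 and 2.88, lower in 15 of 16 (log2 −0.21 ± 0.06, edgeR adjusted p = 0.0098). Pgam1 lost its call without pool 1 (adjusted p = 0.31) or pool 2 (0.32) and with library-size scaling (log2 0.05), and Pgk1 without pool 1 (0.054). Pdk1 lost its call without pool 1 (adjusted p = 0.098) or pool 2 (0.21), and P4ha1 without pool 1 (0.085). The count of calls fell to 10 without pool 1 and to 9 without pool 2, to 8 with gates on raw tag counts (6 higher, 2 lower) and to 7 with thinned cells. Library-size scaling moved the split over all genes from 722 higher and 634 lower to 486 and 1552 and left 9 of the 35 higher and 2 lower. The 13 dissociation-induced genes (12 higher, 0 lower) summed to a median of 219 against 143 per 10000, and monocyte markers were at 0.227 to 1.91 against 0.473 to 1.35. Of 10 microglia markers 9 were lower in the low gate and 0 higher, with a median log2 fold change of −0.36, and of 4 other macrophage markers tested 2 were higher, Apoe and Ccl2. The gates also drew on different clusters: cluster 15 made up 31.5% of the low and 9.78% of the high gate at the median, and cluster 5 made up 11.1% and 33.8%. Pooled over samples, Pkm was at 2.44 in cluster 15 and 1.88 in cluster 5, and Gapdh at 8.65 and 7.08. The part of the dissociation-induced genes, of the markers and of the clusters in the result was not tested.

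Related genes outside the 35 did not follow them as a block. Among 15 enzymes of the tricarboxylic acid cycle, 8 were higher in Nos2 and Inhba macrophage-like than in monocyte-like cells, led by Idh3a (log2 1.21 ± 0.13) and Dlat, and 0 lower (edgeR adjusted p under 0.05), against 24.9% higher of all genes tested. In the Ly-6C high gate 9 of the 15 were lower and 0 higher, again led by Idh3a (log2 −0.90), against 25.3% lower of all genes. Between monocyte-like and microglia-like cells 8 of 11 other genes of glycolysis and the pentose phosphate path were higher and 2 lower, against 37.1% higher and 41.2% lower of all genes. Ldhb, whose product favors the turn of lactate to pyruvate, was the largest of them, at a log2 fold change of −3.86 ± 0.13. Of 16 other genes of the hypoxia list 6 were higher and 7 lower there, among them the repressors Bhlhe40 (5.83) and Bhlhe41 (−6.72), and these shares were near the background. Between the Nos2 and Inhba and the Gpnmb class, 2 of 12 other glycolysis and pentose phosphate genes were higher and 1 lower. Of 17 other genes of the hypoxia list 3 were higher and 3 lower, against 16.2% higher and 13.7% lower of all genes.

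Unnamed clusters also differed in the 35 genes. A cluster of 1973 cells rich in Tnf, Ccl3 and Ccl4 held all 10 microglia markers and stayed unnamed because Il1a, of another marker list, was among its top genes. Its summed level was above that of microglia-like cells in 11 of 11 hashed samples, by 1.25 to 1.75 times with a median of 1.51. A cluster of 572 cells led by Cst7 and Cd72 reached 102 to 112 per 10000 in 6 samples, with Aldoc at 0.919 and Mif at 11.7 when pooled, and Vegfa at 0.256. P2ry12 and Tmem119 were at 1.67 and 2.90 there. These levels are descriptions without a test.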

How the data were processed

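The deposited matrices hold raw RNA, protein tag and hashtag UMI counts per cell. They were made with Cell Ranger 3.0.1 and 4.0.0 on mm10, per the submitters' processing notes. Kept cells had 200 or more genes, 500 or more RNA UMIs and a mitochondrial share below 10%, and the hashtag with at least 80% of at least 10 hashtag UMIs gave the hashed sample. Cells were clustered with scanpy 1.11.5 without the genes of both pathways. Clusters were named from marker lists, with score limits set after the scores were seen, so names are approximate. Counts were summed per hashed sample and class, or per gate of the highest and lowest 25% of a tag's centered log ratio, where both sides held at least 20 cells. They were tested with edgeR 4.0.16 (quasi-likelihood, TMM, filterByExpr, hashed sample as a block, Benjamini-Hochberg over all genes, threshold 0.05), which was tested on simulated data. Fold changes are TMM-scaled, while levels per 10000 UMIs are not. Doublets were not removed in the main analysis. Scrublet's automatic call marked 0, 464 and 7 cells in pools 1 to 3, so it did not work in pools 1 and 3, and a score limit of 0.2 was used as an alternative. Up to 3 genes with the largest fold change in each direction past the threshold are given with their values. The 35 genes, the other lists and the tests were chosen with earlier results of these data known. Alternatives were library-size scaling, DESeq2 1.42.0, no filter, no block, each pool left out, other cell, hashtag and doublet limits, thinning, clustering with the pathway genes, and other gates.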

Additional observations from a re-analysis of the deposited data

Results flagged for a closer look

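In the comparison of dendritic-like with monocyte-like cells, hashed sample 4 of pool 3 stood far above the other 9 for 2 genes. For Ddit4 its log2 ratio of levels was 3.28, against −0.17 to 1.43 in the others (n = 10). For Ndrg1 it was 6.55, against −0.06 to 3.25, and Ndrg1 was at 0 in its monocyte-like cells, so this ratio is set by the offset of 0.01 added to both levels. The monocyte-like side of this hashed sample held 321868 UMIs from 44 cells, so its Ddit4 level also rests on few UMIs. In all, 33 groups of values were checked this way, and chance flags about 1 in 20.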

How the results depend on the processing

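Each hashed sample gave both sides of its comparison, so the hashed sample was the replicate block. Without the block the calls among the 35 genes fell from 16 to 6 for Nos2 and Inhba macrophage-like against monocyte-like cells, from 21 to 12 for Gpnmb against monocyte-like, from 24 to 8 for Nos2 and Inhba against Gpnmb, from 25 to 14 for the Ly-6C gates and from 16 to 9 for the TMEM119 gates. With no replicate block the count was 25 against 27 for monocyte-like against microglia-like cells and 28 in both fits for dendritic-like against monocyte-like. Thinning to 2000 UMIs gave 9, 12, 9 and 7 calls in the first 3 of these and the TMEM119 gates, with fewer genes tested. DESeq2 gave 10 and raw tag gates 8 for the TMEM119 gates. Leaving out 1 pool at a time gave 26 to 28 calls for monocyte-like against microglia-like, 12 to 16 for Nos2 and Inhba and 11 to 19 for Gpnmb against monocyte-like, 17 to 21 for Nos2 and Inhba against Gpnmb, 26 to 28 for dendritic-like, 19 to 25 for Ly-6C and 9 to 15 for TMEM119. Calls that held under every alternative in which the gene was tested numbered 24 of 27, 5 of 16, 10 of 21, 6 of 24, 26 of 28, 13 of 25 and 5 of 16 in the same order. Alternatives in which a gene was not tested do not count against it. With thinned cells, for example, only 19 of the 28 dendritic-like calls were tested again, and these 19 held. Reversed signs were Hk3 for Gpnmb against monocyte-like without pool 2 (−0.31 to 0.014 over the pools left out), Egln1 (−0.021) and Bnip3l (−0.060) for Ly-6C with thinned cells and Hk2 (−0.038) for TMEM119 with raw tag gates, and the cause was not tested. Without Gapdh and Mif the median summed levels were 26.6 in microglia-like, 77.0 in monocyte-like, 89.6 in Nos2 and Inhba, 73.1 in Gpnmb and 57.4 in other macrophage-like and 42.8 in dendritic-like cells, as fewer genes enter the sum. Gpnmb macrophage-like cells were then below monocyte-like cells, while with all 35 genes they were above. Clustering with the pathway genes gave no fit for the 3 comparisons with Nos2 and Inhba or Gpnmb macrophage-like cells, as neither class was named there. Its monocyte-like class held 3800 cells against 1840, so the fits with monocyte-like cells in that alternative rest on a different set of cells. Genes of low level rest on few UMIs, and pool 3 adds few cells.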
